A study of Homo sapiens with 9 samples.

Results

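The genes examined were those that set, maintain, read and remove DNA methylation: the DNA methyltransferases DNMT1, DNMT3A and DNMT3B, the maintenance factor UHRF1, the dioxygenases TET1, TET2 and TET3, the DNA glycosylase TDG and the methyl-CpG binding protein MBD2. They were chosen by gene symbol, and all 9 were found among the 42717 genes of the count table. The RNA came from lines S2-007 and S2-028 and from line S2-020. These are sublines of SUIT-2, a human cell line from pancreatic ductal adenocarcinoma. Each line gave 3 libraries, 9 in all. All lines were grown in DMEM with serum and no treatment is named, so that the groups differ by line alone as far as the labels tell. S2-007 carries the protein maspin in the nucleus and the cytoplasm, S2-028 carries it in the cytoplasm, and S2-020 has little of it. Each line is a single subline, so that a difference between lines is a difference between those sublines and no more. Total counts lay between 60328748 and 86253923 per library. The summed level of 5 epithelial markers was between 9322 and 9817 CPM (counts scaled to a common library size) in S2-007, between 4268 and 5384 in S2-020 and between 14381 and 16875 in S2-028. A large part of this sum was the keratin gene KRT8, at 4815 CPM in S2-007, 2912 in S2-020 and 8450 in S2-028. EPCAM was at 527.5, 121.6 and 421.5 CPM, so that it was lower in S2-028 than in S2-007. In S2-020 the adhesion gene CDH1 was at 4.55 CPM and the ductal keratin gene KRT19 at 102.8, against 54.3 and 2123 in S2-007, so that these markers were low in S2-020. The part of this epithelial difference in the values of the members was not tested. The summed level of 10 markers of leukocytes, endothelium and fibroblasts was between 9.48 and 13.4 CPM in every library. The T cell gene CD3E was at 0 in all S2-007 libraries, at 0.181 CPM in S2-020 (8 to 22 counts) and at 0.332 in S2-028 (18 to 22 counts). Of these 10, the endothelial gene PECAM1 had the highest mean in every line, at 6.18 CPM in S2-007, 8.5 in S2-020 and 6.01 in S2-028.

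Methyl groups are placed on cytosine, mostly where a guanine follows, by DNMT3A and DNMT3B at new sites and by DNMT1 at sites that were methylated before replication. UHRF1 binds DNA methylated on a single strand and brings DNMT1 to it. TET enzymes oxidize the methylated base in steps, TDG cuts out the most oxidized forms, and base excision repair then puts back an unmodified cytosine. Many tumours, including those of the pancreas, lose methylation over much of the genome and gain it at CpG-rich promoters.

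DNMT1 and UHRF1 are known as genes of dividing cells, and their promoters are shown because they are the members whose sequence around a transcript start held an E2F-type motif. The letters searched were TTTCCCGC, TTTCGCGC, TTTGCCGC and TTTGGCGC on both strands, over 250 bases before to 50 after each start in RefSeq's promoter table for GRCh38.p14. The motif was present in 1 of 1 DNMT1 promoters and in 2 of 3 UHRF1 promoters, and in none of the 16 promoters of the other members. For DNMT3B, UHRF1 and TET3 no promoter listed lay at the annotated start of the gene, so that sequence at that start was not searched. Among all 35116 promoters of 27305 genes, 3.31% held it. Each of these motifs contains a CpG, and the median promoter held 14 CpG. The DNMT1 promoter held 30, and the UHRF1 promoters with the motif held 36 and 40, so that the 3.31% is not matched for CpG. The stretches run 5′ to 3′ from 150 bases before to 20 bases from the start onward, and capitals mark the motif as it reads on that strand. The UHRF1 stretch lies at chr19:4909351-4909520 on the forward strand, where the motif began 14 bases before the start. The DNMT1 stretch lies at chr19:10194934-10195103 on the reverse strand, where it began 2 bases before the start. A match describes the letters only, and binding was not measured.
UHRF1: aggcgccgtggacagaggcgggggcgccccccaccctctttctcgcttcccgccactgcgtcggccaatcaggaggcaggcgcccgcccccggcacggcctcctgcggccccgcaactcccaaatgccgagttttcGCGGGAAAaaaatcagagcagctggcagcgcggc
DNMT1: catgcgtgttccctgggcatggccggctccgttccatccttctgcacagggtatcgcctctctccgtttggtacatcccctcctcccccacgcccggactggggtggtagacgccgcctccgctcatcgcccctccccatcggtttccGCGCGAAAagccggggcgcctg

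All 9 members were kept by the filter on low counts in each comparison. In S2-028 against S2-007, DNMT3B, UHRF1 and TET1 rose and TDG fell, by an adjusted p under 0.05 and a change of at least 1.5-fold (0.585 on the log2 scale). These 4 calls among 9 members stood beside 18.4% of all 26371 genes tested, with 10.2% called higher and 8.19% lower. The libraries of both lines did not overlap for 6 of the 9 members, against 43.3% of all genes tested. The median log2 fold change of the members was 0.21, and that of all genes was 0.0020.

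In S2-020 against S2-007, UHRF1, DNMT3B, TET1 and TET3 rose and no member was called lower by edgeR at the fold threshold, by DESeq2 or by the likelihood ratio test, although DNMT3A, at -0.19 on the log2 scale, had an unadjusted p of 0.011. The 4 calls, all higher, stood beside 21.6% of 26657 genes tested, with 9.57% called higher and 12.1% lower. Libraries did not overlap for 8 of the 9 members, against 48.5% of all genes tested. The median log2 fold change of the members was 0.53, and that of all genes was -0.053.

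In S2-028 against S2-020, TET2 and TDG fell. No member was called higher by edgeR, by DESeq2 or by the likelihood ratio test, and none of the 3 members with a positive change had an unadjusted p under 0.05. The 2 calls stood beside 22.2% of 26031 genes tested, with 12.1% called higher and 10.1% lower. Libraries did not overlap for 5 of the 9 members, against 48.9% of all genes tested. The median log2 fold change of the members was -0.235, and that of all genes was 0.025. Each line enters 2 of the 3 comparisons, so that they are not independent of each other.

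**Figure D1:**
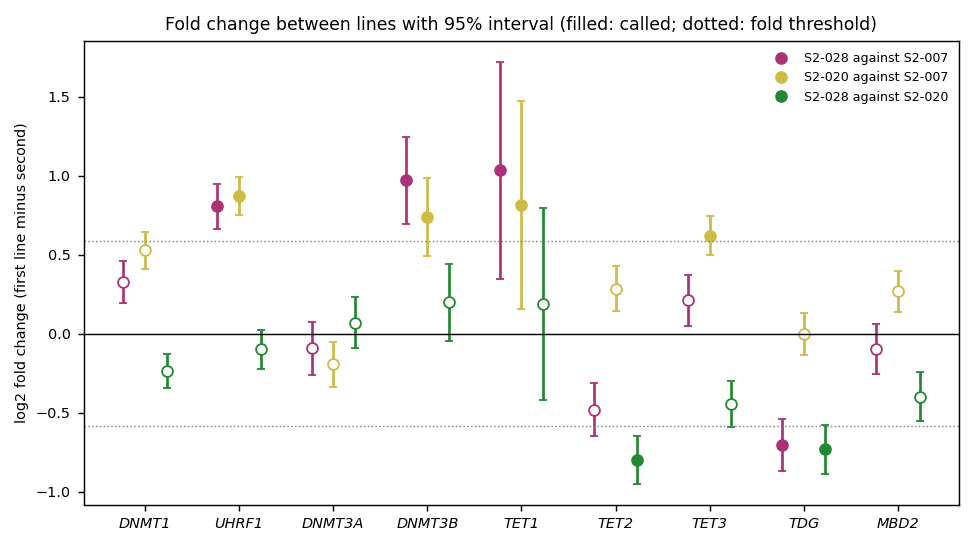
Log2 fold change of each member in the 3 comparisons of lines (vertical axis, first line minus second), with 95% intervals from edgeR's quasi-likelihood test. Filled points passed both thresholds and dotted lines mark a log2 fold change of 0.585 in either direction: UHRF1, DNMT3B and TET1 are filled above 0 in both comparisons with S2-007, TET3 only in S2-020 against S2-007, and TDG is filled below 0 in both comparisons of S2-028.

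Levels of different genes were compared as CPM per kilobase of the canonical transcript. DNMT1 and UHRF1 stood far above the other members in every line. In S2-007 DNMT1 was at 50.1 ± 4.18 CPM per kb (SD, n = 3), UHRF1 at 33.3 ± 2.53, TDG at 14.4 ± 0.98 and MBD2 at 8.81 ± 0.233. TET3, TET2 and DNMT3A followed in that line at 4.15 ± 0.256, 3.76 ± 0.254 and 3.44 ± 0.156 CPM per kb, and the library ranges of TET3 and TET2 overlapped, as did those of TET2 and DNMT3A. DNMT3B was at 1.51 ± 0.143 and TET1 at 0.0617 ± 0.00877 CPM per kb. TET1 was thus the lowest member, with between 38 and 99 counts per library.

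In S2-020 the order was the same, from DNMT1 at 73.8 ± 3.36 CPM per kb (SD, n = 3) and UHRF1 at 62.3 ± 2.22 to DNMT3A at 3.08 ± 0.0684, DNMT3B at 2.58 ± 0.139 and TET1 at 0.111 ± 0.0183, and no neighbours in this order had overlapping libraries. In S2-028 TET2 moved to the eighth place, behind both DNMT3 genes. There DNMT1 was at 62.6 ± 3.2 and UHRF1 at 58.1 ± 4.75 CPM per kb, and their libraries overlapped. TDG at 8.81 ± 0.605 and MBD2 at 8.23 ± 0.712 also overlapped. DNMT3A at 3.22 ± 0.206 overlapped DNMT3B at 2.96 ± 0.403, which overlapped TET2 at 2.69 ± 0.115. With the joined length of all exons in place of the canonical transcript, UHRF1 stood above DNMT1 in all 3 lines (25.2 against 17.2 CPM per kb in S2-007), MBD2 stood above TDG in S2-020 and S2-028, and DNMT3A stood above TET2 in S2-007. This alternative was chosen after seeing the data.

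**Figure D2:**
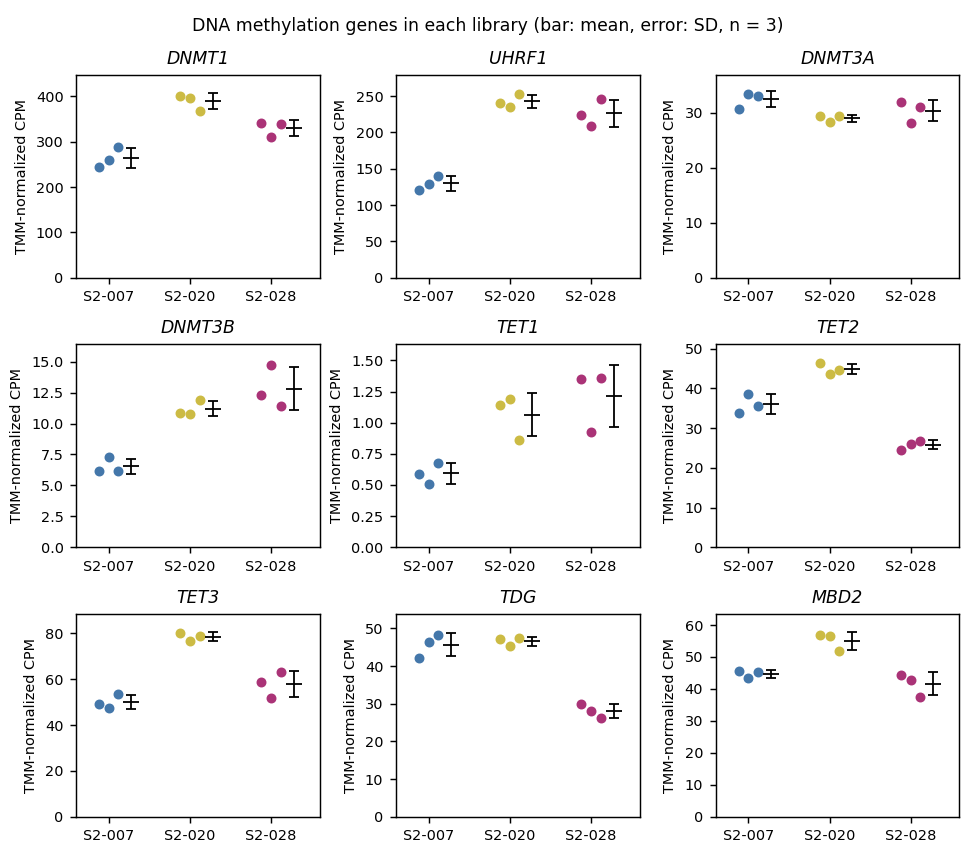
Level of each member in each of the 9 libraries (vertical axis, TMM-normalized CPM from 0) by line (horizontal axis), with bars for the mean and SD of 3 libraries. S2-007 libraries lie below all others for DNMT1, UHRF1, DNMT3B and TET1, and S2-028 libraries lie below all others for TET2 and TDG.

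UHRF1 (NCBI gene 29128) lies on chromosome 19 from 4903080 to 4962154 on the forward strand of GRCh38.p14. Its level was 120.2, 129.4 and 139.9 CPM in the S2-007 libraries, 240.1, 235.7 and 252.4 in S2-020 and 224.6, 209.0 and 245.9 in S2-028. Every library of S2-020 and S2-028 was above every S2-007 library, whereas S2-020 and S2-028 overlapped. UHRF1 was 1.83-fold higher in S2-020 than in S2-007 (log2 fold change 0.87, standard error (SE) 0.0561, adjusted p = 1.01e-10, by the quasi-likelihood test of edgeR after Benjamini-Hochberg adjustment) and 1.75-fold higher in S2-028 (0.81, SE 0.0684, adjusted p = 4.12e-09). Between S2-028 and S2-020 the log2 fold change was -0.099, with a 95% interval from -0.22 to 0.024 and an adjusted p of 0.209. Of the 31-base words in its transcripts, 27% also occur in other genes, mainly in ENSG00000256663, so that part of its count could depend on how such reads were assigned.

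DNMT1 (NCBI gene 1786), the maintenance methyltransferase, lies on chromosome 19 from 10133346 to 10194953 on the reverse strand. It was at 245.3, 258.7 and 288.4 CPM in S2-007, at 401.4, 397.2 and 368.8 in S2-020 and at 340.6, 310.9 and 339.6 in S2-028. The lines did not overlap, with S2-007 lowest and S2-020 highest. Its differences had adjusted p under 0.05 in all comparisons but stayed under the fold threshold: the log2 fold change was 0.53 in S2-020 against S2-007 (SE 0.0567, adjusted p = 1.86e-07), 0.33 in S2-028 against S2-007 (SE 0.0637, adjusted p = 0.000296) and -0.235 in S2-028 against S2-020 (SE 0.0524, adjusted p = 0.00109). Without replicate 3 of S2-007, the change in S2-020 against S2-007 was 0.62 with an adjusted p of 3.63e-08 and passed the threshold, and the adjusted p was at most 1.63e-05 whichever library was left out.

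DNMT3B (NCBI gene 1789) methylates new sites and lies on chromosome 20 from 32762385 to 32809356 on the forward strand. Its level was 6.17, 7.26 and 6.19 CPM in S2-007, 10.9, 10.8 and 11.9 in S2-020 and 12.3, 14.8 and 11.4 in S2-028. S2-007 lay below both other lines, which overlapped each other. It was 1.96-fold higher in S2-028 than in S2-007 (log2 fold change 0.97, SE 0.132, adjusted p = 3.8e-06) and 1.67-fold higher in S2-020 (0.74, SE 0.118, adjusted p = 3.08e-05). Between S2-028 and S2-020 the log2 fold change was 0.20, with a 95% interval from -0.045 to 0.44 and an adjusted p of 0.202.

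DNMT3A (NCBI gene 1788), the other enzyme for new sites, lies on chromosome 2 from 25227874 to 25342590 on the reverse strand and had the narrowest range of line means among the members, 0.162 on the log2 CPM scale. It was at 30.8, 33.5 and 33.1 CPM in S2-007, at 29.4, 28.2 and 29.3 in S2-020 and at 31.9, 28.2 and 30.97 in S2-028. Only S2-020 and S2-007 did not overlap. The log2 fold change was -0.19 in S2-020 against S2-007 (SE 0.0687, adjusted p = 0.0294, under the fold threshold), -0.091 in S2-028 against S2-007 (adjusted p = 0.448, 95% interval from -0.26 to 0.075) and 0.069 in S2-028 against S2-020 (adjusted p = 0.539, 95% interval from -0.092 to 0.23).

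Within the methyltransferases, DNMT1 took between 90.2% and 93.2% of the summed CPM per kb in every library. DNMT3A's share was 6.27% ± 0.34 (SD, n = 3) in S2-007, 3.88% ± 0.21 in S2-020 and 4.68% ± 0.10 in S2-028, without overlap between lines. DNMT3B made up 2.75% ± 0.34 in S2-007, 3.26% ± 0.31 in S2-020 and 4.32% ± 0.79 in S2-028, where only S2-028 stood apart from both other lines. The summed level of the DNMT genes was 55.0 ± 4.26 CPM per kb in S2-007, 79.4 ± 3.2 in S2-020 and 68.8 ± 3.02 in S2-028, again without overlap. With the length of all exons joined, an alternative chosen after seeing the data, DNMT1 took 83.8% in S2-007, 87.1% in S2-020 and 84.1% in S2-028, DNMT3A 11.5%, 7.25% and 8.62%, and DNMT3B 4.66%, 5.62% and 7.33%, so that the shares of both DNMT3 genes were over 1.5 times as large while the order of the lines was kept. The shares are given as a description, without a test.

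TET1 (NCBI gene 80312), which binds unmethylated CpG through its CXXC domain, lies on chromosome 10 from 68560337 to 68694487 on the forward strand and was near the bottom of the measurable range. Its counts were 44, 38 and 50 in S2-007, 82, 99 and 62 in S2-020 and 84, 59 and 83 in S2-028. In CPM these were 0.588, 0.511 and 0.679 in S2-007, 1.14, 1.19 and 0.865 in S2-020 and 1.35, 0.924 and 1.36 in S2-028. S2-007 lay below both other lines, which overlapped each other. The log2 fold change was 1.04 in S2-028 against S2-007 (SE 0.329, adjusted p = 0.0175) and 0.82 in S2-020 against S2-007 (SE 0.313, adjusted p = 0.0449). With a library left out the log2 fold change stayed between 0.94 and 1.19 in S2-028 and between 0.73 and 0.95 in S2-020, but the calls were lost in several of these fits, each of which has fewer samples. Without S2-007 replicate 2, S2-028 replicate 1 or S2-028 replicate 3 the adjusted p of the former was 0.0644, 0.0704 and 0.0666, and without S2-007 replicate 1, S2-007 replicate 2, S2-020 replicate 1 or S2-020 replicate 2 that of the latter was 0.0835, 0.124, 0.113 and 0.145. Over all libraries left out in turn, the adjusted p lay between 0.011 and 0.0704 for the former and between 0.038 and 0.145 for the latter, which had 0.0744 with no filter on low counts. Between S2-028 and S2-020 the log2 fold change was 0.19, with a 95% interval from -0.42 to 0.79 and an adjusted p of 0.678.

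TET2 (NCBI gene 54790), the member of the family without a CXXC domain of its own, lies on chromosome 4 from 105145875 to 105279803 on the forward strand. Its level was 33.9, 38.7 and 35.5 CPM in S2-007, 46.3, 43.7 and 44.7 in S2-020 and 24.6, 26.1 and 26.7 in S2-028. The lines did not overlap, with S2-020 highest and S2-028 lowest. TET2 was 1.74-fold lower in S2-028 than in S2-020 (log2 fold change -0.80, SE 0.0717, adjusted p = 2.02e-08). Against S2-007, the log2 fold change was -0.48 in S2-028 (SE 0.0794, adjusted p = 4.71e-05) and 0.29 in S2-020 (SE 0.0678, adjusted p = 0.00184), both under the fold threshold and of opposite sign.

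TET3 (NCBI gene 200424) lies on chromosome 2 from 73983631 to 74135498 on the forward strand. It was at 49.3, 47.4 and 53.4 CPM in S2-007, at 80.4, 76.8 and 78.7 in S2-020 and at 58.9, 51.6 and 63.0 in S2-028. S2-020 lay above both other lines, which overlapped. TET3 was 1.54-fold higher in S2-020 than in S2-007 (log2 fold change 0.62, SE 0.0582, adjusted p = 2.8e-08), just past the fold threshold. The log2 fold change was 0.21 in S2-028 against S2-007 (SE 0.077, adjusted p = 0.037) and -0.44 in S2-028 against S2-020 (SE 0.0692, adjusted p = 2.8e-05), both under that threshold.

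In the summed CPM per kb of the TET genes, TET2 had its largest share in S2-007 and TET3 in S2-028. TET2 made up 47.2% ± 2.8 (SD, n = 3) in S2-007, 41.4% ± 0.18 in S2-020 and 35.4% ± 2.5 in S2-028, and TET3 made up 52.1% ± 2.7, 57.6% ± 0.24 and 62.9% ± 2.3. The lines did not overlap for either gene. TET1 was at 0.773% ± 0.1 in S2-007, 0.98% ± 0.17 in S2-020 and 1.65% ± 0.26 in S2-028, where S2-007 and S2-020 overlapped. With the length of all exons joined, TET2 made up 35.8%, 30.6% and 25.5% and TET3 63.2%, 68.2% and 72.5%, in the same order of lines. The summed level of the TET genes was 7.97 ± 0.264 CPM per kb in S2-007, 11.3 ± 0.281 in S2-020 and 7.61 ± 0.525 in S2-028, so that S2-020 was highest and the other lines overlapped.

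**Figure D3:**
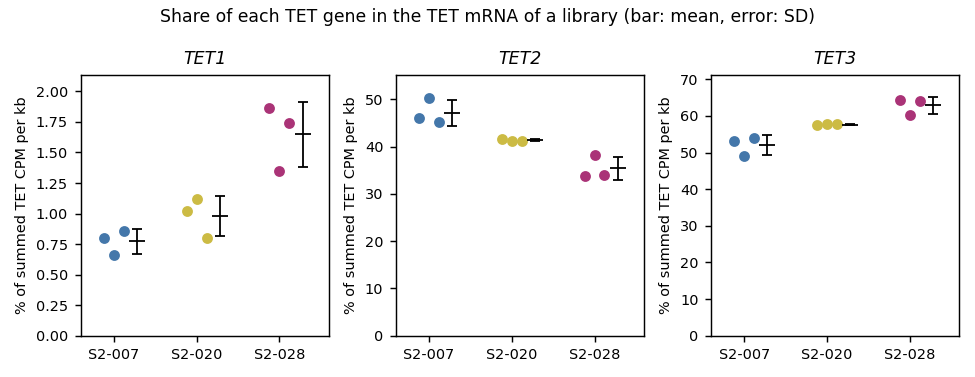
Share of TET1, TET2 and TET3 in the summed TET level of each library (vertical axis, percent of CPM per kb, from 0, with a scale of its own for each gene) by line, with bars for the mean and SD of 3 libraries. TET2 is lowest and TET3 highest in S2-028, at 35.4% and 62.9%, and TET1 is at 1.65% there, its highest.

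TDG (NCBI gene 6996), the glycosylase that removes the oxidized bases, lies on chromosome 12 from 103965872 to 103988874 on the forward strand. Its level was 42.3, 46.5 and 48.3 CPM in S2-007, 47.1, 45.3 and 47.4 in S2-020 and 30.0, 28.0 and 26.1 in S2-028. All S2-028 libraries were below all others, and S2-007 and S2-020 overlapped. TDG was 1.63-fold lower in S2-028 than in S2-007 (log2 fold change -0.70, SE 0.0788, adjusted p = 2.91e-07) and 1.66-fold lower than in S2-020 (-0.73, SE 0.0733, adjusted p = 9.26e-08). Between S2-020 and S2-007 the log2 fold change was -0.0027, with a 95% interval from -0.14 to 0.13. Of its 31-base words, 14.2% also occur in other genes, mainly in the pseudogene TDGP1, and 3.44% of its exon bases lie under another annotated gene.

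MBD2 (NCBI gene 8932), which binds methylated CpG and brings the NuRD complex of histone deacetylases and remodellers, lies on chromosome 18 from 54151606 to 54224669 on the reverse strand. It was at 45.5, 43.3 and 45.1 CPM in S2-007, at 56.8, 56.5 and 51.7 in S2-020 and at 44.5, 42.9 and 37.6 in S2-028. S2-020 lay above both other lines, which overlapped. No difference of MBD2 reached the fold threshold. The log2 fold change was 0.27 in S2-020 against S2-007 (SE 0.0621, adjusted p = 0.00135), -0.40 in S2-028 against S2-020 (SE 0.0736, adjusted p = 0.000169) and -0.096 in S2-028 against S2-007 (95% interval from -0.25 to 0.063, adjusted p = 0.397).

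Profiles of the members over the 9 libraries were compared with each other and with those of all genes. By the root mean square distance of log2 CPM centred on each gene's mean, the closest members were DNMT1 and TET3, at 0.106, followed by TET2 and TDG, at 0.151. The 3 members with the widest range of line means were TET1, DNMT3B and UHRF1, with 0.987, 0.963 and 0.905 on the log2 CPM scale. Among 28018 genes, the nearest to UHRF1 were FUCA2, MRPS12 and CS at distances of 0.0585, 0.0653 and 0.0663. Those nearest to DNMT3B were ZNF449, CEP112 and PACSIN3 at 0.0862, 0.0863 and 0.102, and those nearest to TET1 were LOC124901406, ZC3H10 and MCM2 at 0.144, 0.151 and 0.159. Such profiles were common, since 1040 genes lay within 0.25 of UHRF1, 629 of DNMT3B and 244 of TET1.

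Partners of the methyltransferases were measured next, and 9 of 10 listed genes were tested. Against S2-007, 2 of them rose in S2-028 (22.2%, beside 18.4% of all genes called) and 3 in S2-020 (33.3%, beside 21.6%), with medians of 0.37 and 0.57 on the log2 scale, and 1 fell in S2-028 against S2-020 (11.1%, beside 22.2%), with a median of -0.087. CDCA7, which brings the remodeller HELLS to chromatin, was at 40.1 ± 4.4 CPM (SD, n = 3) in S2-007, 66.1 ± 2.35 in S2-020 and 66.0 ± 5.39 in S2-028, with log2 fold changes against S2-007 of 0.69 (SE 0.0708, adjusted p = 1.03e-07) and 0.72 (SE 0.0804, adjusted p = 2.6e-07). Its paralogue CDCA7L rose too, by 0.61 in S2-020 and 0.87 in S2-028. ZBTB24, a zinc finger factor mutated, like CDCA7, HELLS and DNMT3B, in a syndrome of immunodeficiency and centromeric hypomethylation, was at 18.5 ± 2.88 CPM in S2-007, 42.5 ± 2.49 in S2-020 and 25.9 ± 1.2 in S2-028. It was highest in S2-020 (1.17, SE 0.0896, adjusted p = 1.5e-09 against S2-007) and fell in S2-028 against S2-020 (-0.71, SE 0.0752, adjusted p = 2.03e-07).

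Of 8 genes listed as other readers of methylated CpG, 2 rose in S2-028 against S2-007, 1 rose and 1 fell in S2-020 against S2-007, and 2 rose in S2-028 against S2-020. This is 25% in each comparison, near the 18.4%, 21.6% and 22.2% of all genes called. MBD3, a NuRD subunit, was counted in this list and not among the NuRD genes, and was not called in any comparison. ZBTB38 was at 33.6 ± 2.55 CPM (SD, n = 3) in S2-007, 98.1 ± 3.73 in S2-020 and 82.4 ± 3.43 in S2-028, with log2 fold changes against S2-007 of 1.51 (adjusted p = 3e-13) and 1.30 (adjusted p = 5.88e-12). ZBTB33, which encodes the reader Kaiso, was highest in S2-028, with 52.9 ± 0.74 CPM against 19.8 ± 0.686 in S2-007 and 29.6 ± 3.28 in S2-020. ZBTB4 was lowest in S2-020, with 33.6 ± 1.95 CPM against 52.5 ± 2.69 in S2-007 and 61.5 ± 4.71 in S2-028.

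Of the 11 other NuRD subunits listed, none was called in S2-028 against S2-007 or against S2-020 by edgeR, by DESeq2 or by the likelihood ratio test, although 6 and 8 had an unadjusted p under 0.05. In S2-020 against S2-007, the deacetylase gene HDAC1 fell from 260.9 ± 3.72 to 170.3 ± 6.6 CPM (log2 fold change -0.65, SE 0.0505, adjusted p = 1.93e-09). No other subunit was called there, although 8 of the 11 had an adjusted p under 0.05. The shares called were 0% in S2-028 against S2-007, 9.09% in S2-020 against S2-007 and 0% in S2-028 against S2-020. Of all genes, 18.4%, 21.6% and 22.2% were called.

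Of the 8 partners and cofactor enzymes of the TET proteins, 1 rose and 1 fell in every comparison, which is 25% and likewise near the share of all genes. CXXC4, which carries the CXXC domain that TET2 lacks and binds TET2, fell against S2-007 in both other lines, from 2.08 ± 0.365 CPM (SD, n = 3) to 0.466 ± 0.127 in S2-020 (log2 fold change -2.18, SE 0.288, adjusted p = 3.14e-06) and 0.748 ± 0.11 in S2-028 (-1.47, SE 0.272, adjusted p = 0.000172). CXXC5, a relative of CXXC4 that also binds TET2, was highest in S2-028, at 63.4 ± 3.99 CPM against 29.6 ± 0.784 in S2-007 and 42.2 ± 1.11 in S2-020. IDH2, the mitochondrial enzyme that makes alpha-ketoglutarate, the cosubstrate of the TET enzymes, was highest in S2-020, at 53.9 ± 1.61 CPM against 32.1 ± 1.68 in S2-007 and 34.7 ± 1.84 in S2-028.

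Genes of base excision repair, the pathway that TDG feeds and that other glycosylases start at their own lesions, and GADD45 genes made a list of 14, all tested. In S2-028 against S2-007, where TDG fell, 3 of them rose and 2 fell, in S2-020 against S2-007 5 rose and 2 fell, and in S2-028 against S2-020 2 were called, both lower. The shares called were 35.7%, 50% and 14.3%, beside 18.4%, 21.6% and 22.2% of all genes. UNG, the uracil DNA glycosylase, was at 63.5 ± 3.63 CPM (SD, n = 3) in S2-007, 110.0 ± 7.68 in S2-020 and 138.2 ± 11.7 in S2-028, and rose against S2-007 by 0.76 (adjusted p = 3.03e-09) and 1.13 (adjusted p = 2.67e-11) on the log2 scale. LIG3, the ligase that seals the repaired strand, rose against S2-007 by 0.60 in S2-020 (adjusted p = 1.75e-06) and by 0.86 in S2-028 (adjusted p = 1.93e-08). GADD45B, a stress gene, was at 35.7 ± 1.92 CPM in S2-020 against 16.5 ± 0.761 in S2-007 and 17.6 ± 1.31 in S2-028. GADD45G, at 0.637 ± 0.133 CPM in S2-007, rose in S2-028 to 1.54 ± 0.205 (log2 fold change 1.27, SE 0.305, adjusted p = 0.00216).

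The enzymes that supply the methyl donor and turn over folate had 12 of 13 genes tested, with 1 higher and 3 lower in S2-020 against S2-007, and 2 higher and 1 lower in S2-028 against S2-020. The shares called were 33.3% and 25%, beside 21.6% and 22.2% of all genes. SHMT2, the mitochondrial serine hydroxymethyltransferase, rose from 156.3 ± 11.1 CPM (SD, n = 3) in S2-007 to 512.2 ± 44.2 in S2-020 and 406.2 ± 36.5 in S2-028, by 1.68 (adjusted p = 1.91e-14) and 1.38 (adjusted p = 1.09e-12) on the log2 scale. Its cytosolic counterpart SHMT1 did not follow this order, with 49.9 ± 4.99, 41.3 ± 1.75 and 73.3 ± 3.39 CPM. MTAP, which salvages the methionine skeleton, was lowest in S2-020, at 205.9 ± 5.2 CPM against 438.2 ± 19.5 in S2-007 and 375.9 ± 16.1 in S2-028.

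**Figure D4:**
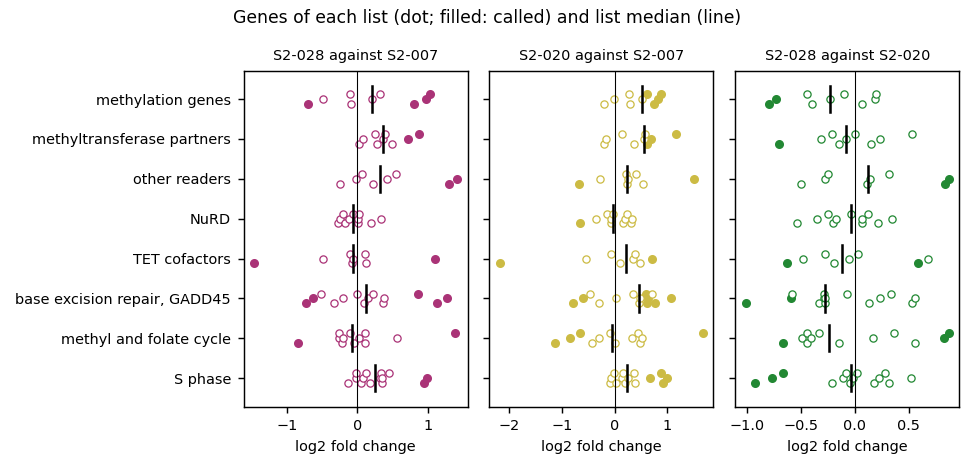
Log2 fold change (horizontal axis) of the tested genes of 8 lists in the 3 comparisons, with filled dots for genes that passed both thresholds and a line at the median of each list. Medians of the methylation genes lie at 0.21, 0.53 and -0.235 from left to right, and the NuRD list holds a filled dot only for HDAC1 in S2-020 against S2-007.

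Of 14 genes of S phase and proliferation, 2 rose in S2-028 against S2-007 (14.3%, beside 18.4% of all genes called) and 4 in S2-020 against S2-007 (28.6%, beside 21.6%), with medians of 0.25 and 0.23 on the log2 scale. In S2-028 against S2-020 3 fell (21.4%, beside 22.2%), with a median of -0.033. MCM2, a subunit of the replicative helicase, was at 195.3 ± 17.7 CPM (SD, n = 3) in S2-007, 318.0 ± 5.54 in S2-020 and 385.6 ± 32.5 in S2-028. CDT1, a licensing factor, was at 82.6 ± 4.67, 167.4 ± 5.29 and 105.3 ± 6.86 CPM, and TYMS, the thymidylate synthase, at 172.5 ± 7.67, 333.0 ± 14.8 and 194.7 ± 3.29. CCNE2, which encodes cyclin E2, was highest in S2-020 as well, at 25.5 ± 0.847 CPM against 13.6 ± 0.196 in S2-007 and 13.3 ± 2.32 in S2-028. Over the whole list, 11 of the 14 genes had a positive change in each comparison with S2-007. An adjusted p under 0.05, in either direction, was found for 9 of the 14 in S2-028 and for 10 in S2-020. CDC6, MCM4, MCM7 and PCNA, named after their values were seen, were higher in both. With MCM2, CDC6 was called in S2-028 against S2-007, at 0.94 on the log2 scale, and it was at 0.39 in S2-020 against S2-007. In the same order, MCM4 was at 0.36 and 0.37, MCM7 at 0.46 and 0.20 and PCNA at 0.32 and 0.26, all under the fold threshold. MKI67, E2F1, RRM2 and MCM5, likewise named after their values were seen, were not called in any comparison. In S2-028 and S2-020 against S2-007, the proliferation marker MKI67 was at -0.14 (adjusted p = 0.0427) and -0.061 (adjusted p = 0.334) on the log2 scale. E2F1 was at -0.018 and 0.17, the latter with an adjusted p of 0.0293 but under the fold threshold, RRM2 at 0.047 and 0.030, and MCM5 at 0.13 and -0.087. Whether a larger share of cycling cells had a part in the level of UHRF1 or DNMT1 was not tested, and in bulk RNA more such cells and more RNA per cell cannot be told apart.

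Genes near a member on its chromosome were used to show whether a member moved with its surroundings. For each member these were the 50 tested genes next to it in order of start position, in equal number on each side. Those around TET2 lay mostly below 0 where TET2 did, with a median of -0.376 and 36 of 50 below 0 in S2-028 against S2-007, where TET2 was at -0.48. In S2-028 against S2-020 their median was -0.328, with 35 of 50 below 0, where TET2 was at -0.80. For TDG, at -0.70 in S2-028 against S2-007, the neighbours' median was 0.0591, whereas in S2-028 against S2-020, where TDG was at -0.73, it was -0.229, with 33 of 50 below 0. For DNMT3B, at 0.97 in S2-028 against S2-007 and 0.74 in S2-020 against S2-007, the medians were -0.16 and 0.0149. The neighbours of UHRF1 had medians of -0.0239 and 0.0607 in S2-028 and S2-020 against S2-007, where UHRF1 was at 0.81 and 0.87. Around TET1, at 1.04 and 0.82 in these comparisons, the medians were 0.125 and 0.19, with 32 and 31 of 50 above 0. The neighbours of TET3 went the other way in S2-020 against S2-007, with a median of -0.328 and 12 of 50 above 0, where TET3 was at 0.62. Copy number was not measured, and its part in these values was not tested.

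**Figure D5:**
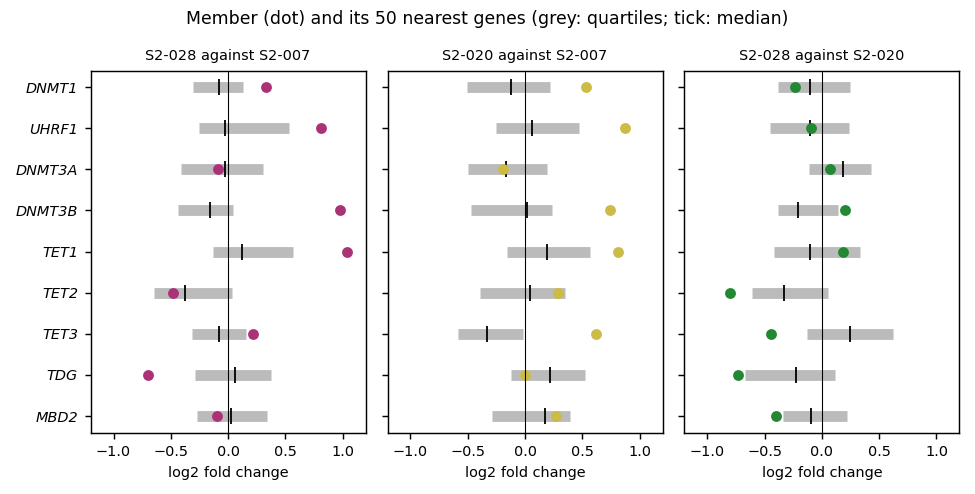
Log2 fold change (horizontal axis) of each member (dot) and of the 50 tested genes next to it in order of start position, in the 3 comparisons. A grey bar runs from lower to upper quartile of these genes, with a tick at the median. TET2 lies inside the bar of its neighbours in S2-028 against S2-007, whereas UHRF1, DNMT3B and TET1 lie above theirs in both comparisons with S2-007.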

How the data were processed

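Strand-specific mRNA libraries were made from 3 samples per line and sequenced on an Illumina instrument. Per the labels, tools named in the submitters' processing notes include Trimmomatic 0.39 and BWA 0.7.17, with the build GRCh38.p14. The authors deposited whole-number counts of mapped reads per gene. The treatment of read pairs, strand and reads with several matches in counting is not given in the sources used here. Of counts from 1 to 20, between 74.6% and 76.1% were even in each library, against between 49.5% and 51% of counts above 200. For this reason, counts halved and rounded were an alternative, chosen after seeing the data. The 2 lines of the table that name no gene hold totals and ratios and were left out, and 18 columns of the authors' normalized values were not used.

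The analysis used edgeR 4.0.16 in R 4.3.3, with filterByExpr (minimum count 10, minimum total 15), TMM factors and the quasi-likelihood test, and each fit held only the 6 libraries of its comparison. Standard errors were the size of the log2 fold change divided by the square root of the F statistic. CPM printed for a gene used TMM factors of all 9 libraries, with a prior count of 2 in logarithms. Calls needed a Benjamini-Hochberg adjusted p under 0.05 over all genes tested and an absolute log2 fold change no smaller than 0.585. Alternatives included DESeq2 1.42.0, the likelihood ratio test, other scaling and filters and each library left out. The procedure was tested on simulated data. Pairs of libraries of a line differed beyond sampling noise (chi-square per gene at least 7.95). The labels do not say that the 3 libraries of a line came from separate cultures, so that p-values measure the spread between libraries, which may be technical. The members and lists were chosen with earlier results of these data known. Of each other list, at most 4 genes called in any comparison were named, those with the widest range of line means. A result that needs a further gene is not reported here. Positions and promoters are from RefSeq tables of GRCh38.p14, and transcript lengths from GENCODE.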

Additional observations from a re-analysis of the deposited data

How the results depend on the processing

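Fold changes of members were recomputed under 10 settings other than leaving out a library, for each of 3 comparisons. Of these values 258 kept their direction and call, 8 lost the call and 4 changed sign. All 4 were TDG in S2-020 against S2-007, which was at -0.0027: it was 0.027 with DESeq2, 0.027 with RLE size factors, 0.028 with all 9 libraries in one fit and 0.0082 with halved counts, and with a library left out it ranged from -0.041 to 0.060. The test against a fold of 1.5 moved the counts most. It called 2, 1 and 1 members (S2-028 against S2-007, S2-020 against S2-007, S2-028 against S2-020) and 2977, 3639 and 3638 of all genes. Under it TET1 and TDG lost their calls in S2-028 against S2-007 (adjusted p = 0.208 and 0.169), DNMT3B, TET1 and TET3 in S2-020 against S2-007 (0.185, 0.44 and 0.486) and TDG in S2-028 against S2-020 (0.0547). With a library left out, the members called numbered 3 to 4, 3 to 5 and 2 in the 3 comparisons. In other lists, DESeq2 called 5 methyltransferase partners in S2-020 against S2-007 in place of 3, 1 TET cofactor gene in S2-028 against S2-020 in place of 2, and 2 germline genes in S2-028 against S2-007 in place of 1. Of base excision repair and GADD45 genes it called 6 in S2-020 against S2-007 in place of 7, and 3 in S2-028 against S2-020 in place of 2. Of leukocyte, endothelium and fibroblast markers it called 4 in S2-028 against S2-007 in place of 3, and 1 in S2-020 against S2-007 in place of 2. The test against a fold of 1.5 called 1, 1 and 0 partners in the 3 comparisons, 3, 3 and 1 base excision repair and GADD45 genes, 2, 1 and 0 TET cofactor genes, and 0 NuRD or germline genes. Other scaling left the median of all genes within 0.1.

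Replicate numbers did not pair the libraries, since the deviations of same-numbered libraries from their line means correlated between -0.0219 and 0.014. With the replicate block, 4, 3 and 2 members and 4865, 5650 and 5716 genes were called, and TET1 in S2-020 against S2-007 had an adjusted p of 0.0694.

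With 3 libraries per line, TET1, at 38 to 99 counts, was the member least well measured. RNA levels do not give protein amounts, enzyme activity or methylation, which these data do not hold.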

Other observations

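Germline genes that promoter methylation is known to silence in somatic cells were low in most cases. Of 27 such genes, 20 had at most 20 counts in every library, and 10, 12 and 9 passed the filter on low counts in S2-028 against S2-007, S2-020 against S2-007 and S2-028 against S2-020. The genes that were called were PIWIL2, which fell in S2-028 against S2-007, and PIWIL1, which fell in S2-020 against S2-007. Both encode Piwi proteins, which bind small RNAs of the germline. In the 3 comparisons, 10%, 8.33% and 0% of the tested genes of this list were called, beside 18.4%, 21.6% and 22.2% of all genes. The likelihood ratio test called 2 genes of the list in each comparison with S2-007. PIWIL2 was at 1.82 ± 0.0602 CPM (SD, n = 3) in S2-007, 1.45 ± 0.0296 in S2-020 and 1.03 ± 0.373 in S2-028, with a log2 fold change of -0.81 in S2-028 against S2-007 (SE 0.283, adjusted p = 0.0309). PIWIL1 was at 1.59 ± 0.223, 0.928 ± 0.182 and 1.23 ± 0.512 CPM, with a log2 fold change of -0.81 in S2-020 against S2-007 (SE 0.265, adjusted p = 0.0189). In S2-028 against S2-020 no gene of this list was called by edgeR, by DESeq2 or by the likelihood ratio test, and 0 had an unadjusted p under 0.05. In S2-007 PIWIL2 had between 131 and 139 counts and PIWIL1 between 100 and 128. MAGEA10, a cancer-testis gene, had between 23 and 71 counts in every library, SYCP3, a gene of meiotic chromosomes, between 6 and 73, and MAGEA6 between 0 and 2.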
